A study of Homo sapiens with 4 samples.

Results

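The miR-181 family was followed across small RNA libraries of exosomes and cells of a pair of human breast lines. The members were the rows whose name equals hsa-miR-181a, hsa-miR-181b, hsa-miR-181c or hsa-miR-181d, without passenger arms (names with a star), which gave 4 of 1100 mature miRNA names. All 4 had reads in every library. The groups were exosomes of MDA-MB-231, cells of MDA-MB-231, exosomes of MCF-10A and a library labelled MCF-10A cell, with 1 library each. MDA-MB-231, a metastatic cancer line without hormone receptors or HER2 and of mesenchymal character, was grown with 10% fetal bovine serum. MCF-10A, an immortal but non-tumorigenic line of breast epithelium, was grown with 5% horse serum, insulin, EGF, cholera toxin and hydrocortisone. Exosomes are small vesicles that cells release. Whether the serum had been cleared of its own vesicles was not given in the sources used here.

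miRNAs are short RNAs that guide Argonaute proteins to messenger RNAs, mostly by pairing of the seed, the bases near their 5′ end. The miR-181 family is best known from lymphocytes, where in mice it tunes T-cell receptor signalling and favours B-cell development. In breast cancer, TGF-β signalling is reported to raise miR-181a, STAT3 to raise miR-181b, which represses the tumour suppressor CYLD, and vesicles with miR-181c to act on the blood-brain barrier through PDPK1.

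The mature sequences show why the 4 names form a family and how little separates them. They are from RefSeq (GRCh38.p14), are written 5′ to 3′, and have bases 2 to 8, the seed, in capitals.
hsa-miR-181a: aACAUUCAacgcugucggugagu
hsa-miR-181b: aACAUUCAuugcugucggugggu
hsa-miR-181c: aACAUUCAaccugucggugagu
hsa-miR-181d: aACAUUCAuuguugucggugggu
All 4 members were matched and share 1 seed. Of 2370 mature names in the RefSeq table, 5 carry it, the fifth being miR-4262, which had 0 reads in each of the 4 libraries. Counted from the 5′ end, miR-181b differs from miR-181a by A9U, C10U and A21G, and miR-181c from miR-181a by G11del, a deleted base. miR-181d differs from miR-181b by C12U alone. The members therefore fall into the pairs miR-181a with miR-181c and miR-181b with miR-181d, in which 1 sequencing error can turn a read of one name into the other.

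The genes pair up differently from the sequences. In GENCODE 29 (GRCh38), MIR181A1 (chromosome 1, 198859044 to 198859153, minus strand) and MIR181B1 (198858873 to 198858982) lie 61 bp apart in an intron of the non-coding MIR181A1HG. MIR181A2 (chromosome 9, 124692442 to 124692551, plus strand) and MIR181B2 (124693710 to 124693798) lie in an intron of MIR181A2HG, antisense to an intron of NR6A1. MIR181C (chromosome 19, 13874699 to 13874808, plus strand) and MIR181D (13874875 to 13875011) lie 66 bp apart in an annotated intron of NANOS3. Both loci on chromosomes 1 and 9 give the same mature miR-181a and miR-181b, so a read of either does not tell its locus. The files hold no coordinates, and hg18 is the build named by the submitters.

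Each deposited value is the log2 of 1 plus the reads per 10000000 miRNA reads, called level here. Their smallest steps gave the whole reads behind them and depths of 1254641 to 10937873 miRNA reads, the exosome libraries being the shallower. The epithelial miR-200c, miR-141 and miR-205 together took 0.0100% of the reads in exosomes of MDA-MB-231 and 0.00848% in cells of MDA-MB-231, against 4.29% in exosomes of MCF-10A and 0.733% of those labelled MCF-10A cell. The library labelled MCF-10A cell differed from the rest in its makeup. In it, 36 of 36 markers of muscle, liver, nerve, blood, stroma, endothelium and placenta had 10 or more reads and together took 49.2% of all reads, against 21 of 36 and 2.42% in exosomes of MDA-MB-231, 10 of 36 and 0.0718% in cells of MDA-MB-231 and 12 of 36 and 0.0846% in exosomes of MCF-10A. Every value set against that library carries this difference. With 1 library per group there was no replicate check and no p-value. Folds and ratios carry a 95% counting interval in parentheses, which covers counting error only, since PCR reads without molecular identifiers are not independent molecules. Levels of different names also carry unequal ligation and amplification, which the files do not correct.

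miR-181a, the member most reported in immune cells, had levels of 16.64 in exosomes of MDA-MB-231 (15655 reads), 15.14 in cells of MDA-MB-231 (26524), 14.46 in exosomes of MCF-10A (2827), and 16.04 where the library was labelled MCF-10A cell (73697). Its level was high in every library and held ranks 13, 27, 33 and 25 among all names in that order. miR-181b had levels of 16.49, 14.96, 13.66 and 12.67 in the same order of libraries, from 14109, 23413, 1624 and 7127 reads. It stood beside miR-181a in MDA-MB-231, at ranks 14 and 31, but at ranks 43 and 107 in the MCF-10A libraries. Against the order of miR-181a, miR-181b was lowest in the library labelled MCF-10A cell.

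miR-181c had levels of 8.98 in exosomes of MDA-MB-231 (77 reads), 8.44 in cells of MDA-MB-231 (254), 5.35 in exosomes of MCF-10A (5), with 10.96 in the library labelled MCF-10A cell (2178). Unlike the others it was highest in the last library, 3.96-fold above exosomes of MDA-MB-231 (3.16 to 5.04), and 5 reads in exosomes of MCF-10A set a wide limit. miR-181d, a repressor of the DNA repair gene MGMT in glioma, had levels of 10.61, 10.25, 6.33 and 9.8 in the same order, from 239, 894, 10 and 974 reads. It followed its gene neighbour miR-181c only in part, since both were lowest in exosomes of MCF-10A but miR-181d was highest in exosomes of MDA-MB-231. In the plot of levels by library, miR-181a and miR-181b lie far above miR-181c and miR-181d in the MDA-MB-231 libraries and exosomes of MCF-10A.

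**Figure D1:**
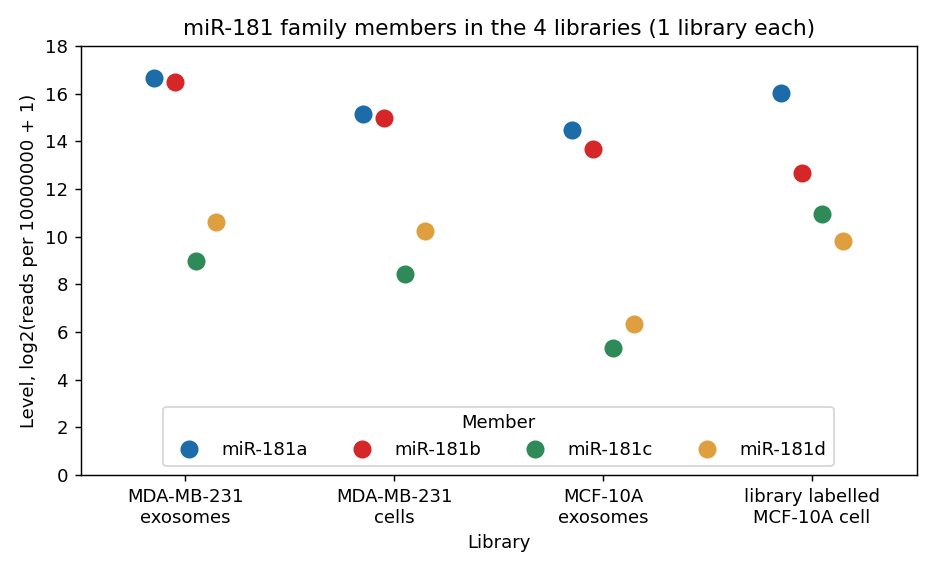
Level of each miR-181 member (y axis, log2 of reads per 10000000 plus 1) in the 4 libraries (x axis), 1 point per member and library, with no error bar because each group is 1 library. miR-181a and miR-181b lie close together in MDA-MB-231 (16.64 and 16.49 in exosomes, 15.14 and 14.96 in cells) and apart in the library labelled MCF-10A cell (16.04 and 12.67).

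Summed over the members, the family took 1.96% of all miRNA reads in exosomes of MDA-MB-231 (Wilson 95% interval 1.94 to 1.98), 0.695% in cells of MDA-MB-231 (0.689 to 0.701), 0.356% in exosomes of MCF-10A (0.346 to 0.367), with 0.768% in the library labelled MCF-10A cell (0.763 to 0.773). Exosomes of MDA-MB-231 thus held the largest share and exosomes of MCF-10A the smallest of these 4 libraries. Neighbours in this order differed beyond counting error, the closest being cells of MDA-MB-231 and the library labelled MCF-10A cell at 1.10-fold (1.09 to 1.12).

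The exosome libraries compare vesicles of the cancer line with those of the non-transformed line. All 4 members passed 4-fold, higher in the vesicles of MDA-MB-231, the size used for a call among names with 10 or more reads per 10000000 in 1 library of the pair. Among the 505 names past that minimum, 29.3% were called higher and 19% lower. miR-181a was 4.53-fold higher (4.35 to 4.72), miR-181b 7.11-fold (6.75 to 7.49), miR-181c 12.6-fold (5.17 to 39.9) and miR-181d 19.6-fold (10.5 to 41.3). The minor members thus had the larger folds, on 5 and 10 reads in exosomes of MCF-10A. The median log2 difference was 3.23 over the members and 0.59 over all names, and the summed family was 5.51-fold higher (5.34 to 5.69). miR-181a passed 4-fold only narrowly: its log2 difference of 2.18 became 1.49 under upper-quartile scaling and 1.94 under median-ratio scaling, both below the 4-fold size. The log2 difference of the summed family, 2.46, likewise fell below that size under upper-quartile scaling, to 1.77.

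Leukocyte miRNAs were also higher in MDA-MB-231 between the exosome libraries. miR-142-3p, miR-142-5p, miR-150 and miR-223, all above 0 in both, summed to 31095 reads per 10000000 in exosomes of MDA-MB-231 and 1495 in exosomes of MCF-10A, whereas the family summed to 196232 and 35598. With miR-155 and miR-146a, 6 of 6 listed leukocyte names were called higher, with a median of 4.50, beside 29.3% of all names. miR-146a was also abundant in cells of MDA-MB-231 (87989 reads), where miR-155 had 3 reads. Of all 36 markers of other tissues, 24 had reads in exosomes of MDA-MB-231, summing to 242486 per 10000000, and 17 in exosomes of MCF-10A, summing to 8461. Those with reads in exosomes of MDA-MB-231 included endothelial miR-126 (11782), stromal miR-143 (8745), liver miR-122 (4342), blood miR-451 (4137) and muscle miR-1 (258). In exosomes of MCF-10A these had 330, 21, 10, 2 and 2 reads. The neural markers went the other way as a sum, with 1723 per 10000000 in exosomes of MDA-MB-231 and 3524 in those of MCF-10A. Of 3 neural names past the minimum, 1 was called higher and 1 lower, beside 29.3% and 19% of all names. The lower was miR-137, with 13 reads in exosomes of MDA-MB-231 and 381 in those of MCF-10A. Muscle miR-133b, miR-208a and miR-208b, neural miR-124, miR-153 and miR-219-5p and all 6 placental names were at 0 in both exosome libraries. The part of the markers in the family's difference was not tested. In a bulk library, more vesicles or cells of a kind and more RNA in each cannot be told apart. When levels were scaled to reads outside these markers, the members' log2 differences ran from 2.21 to 4.31.

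**Figure D2:**
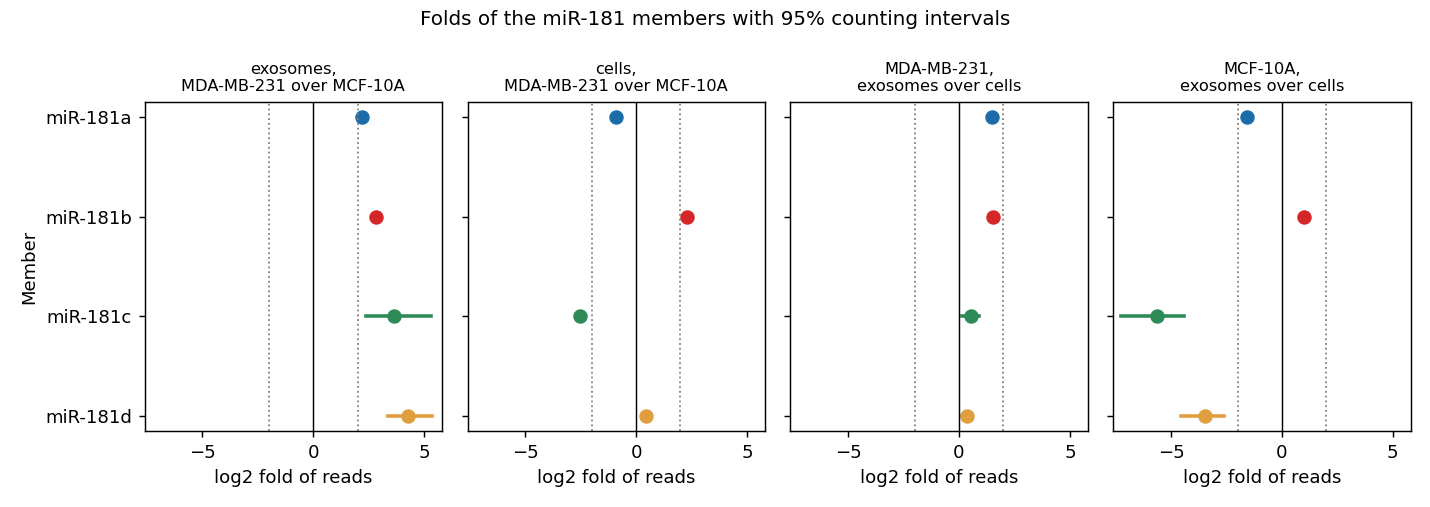
Log2 fold of recovered reads per depth (x axis) for each member (y axis) in the 4 comparisons, with points for the estimate, bars for the 95% counting interval, a solid line at no difference and dotted lines at 4-fold. All 4 members lie past 4-fold in the exosome comparison (4.53-fold for miR-181a to 19.6-fold for miR-181d), and none do between exosomes and cells of MDA-MB-231, while values against the library labelled MCF-10A cell spread to both sides and several change sign under other scalings.

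Within MDA-MB-231, the exosome library was set against the cell library. 0 of 4 members passed 4-fold, while 22.2% of 499 names were called higher and 13.4% lower in exosomes. miR-181a was 2.83-fold higher in exosomes (2.77 to 2.89) and miR-181b 2.89-fold (2.83 to 2.95), which are near each other. miR-181c was 1.45-fold higher (1.11 to 1.88) and miR-181d 1.28-fold (1.11 to 1.48), though under upper-quartile scaling miR-181d was lower in exosomes (log2 difference −0.10). The members' median was 1.02, against −0.09 over all names, and the summed family was 2.82-fold higher (2.78 to 2.86). On the same pair the 4 leukocyte markers summed to 31095 reads per 10000000 in exosomes and 1169 in cells, with miR-150 and miR-223 at 0 in cells. The 36 markers of other tissues summed to 242486 in exosomes and 7180 in cells, and their part in the result was not tested.

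The cell libraries gave each member a different place. miR-181b was 4.89-fold higher in cells of MDA-MB-231 than in the library labelled MCF-10A cell (4.76 to 5.02), and this held its direction under every scaling run, from 1.31 to 4.71 on the log2 scale, the lowest of these being under 4-fold. miR-181c was 5.76-fold lower (5.05 to 6.58), from −3.50 to −0.10 on the log2 scale under the other scalings, and was not called at the upper end of that range. miR-181a was 1.87-fold lower (1.84 to 1.89), but higher by 1.52 log2 under upper-quartile scaling. miR-181d was 1.37-fold higher (1.25 to 1.50), but lower under scaling to reads outside the other-tissue markers (log2 difference −0.53). So 1 member was called higher and 1 lower as deposited, where 17.4% of 665 names were called higher and 54.3% lower. The members' median was −0.23, against −2.83 over all names. The summed family differed by 1.10-fold, lower in cells of MDA-MB-231 as deposited and higher under upper-quartile (log2 difference 2.28) and median-ratio scaling (0.22).

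Between exosomes of MCF-10A and the library labelled MCF-10A cell, the members differed most among themselves. miR-181c was 50-fold lower in exosomes (21.4 to 154, 5 against 2178 reads) and miR-181d 11.2-fold lower (6.05 to 23.4), and both kept this direction under every scaling run. Under upper-quartile scaling miR-181d was no longer called, at a log2 difference of −0.74, and miR-181c stood at −2.89. miR-181a was 2.99-fold lower (2.88 to 3.11), but higher by 1.17 log2 under upper-quartile scaling. As deposited, miR-181b alone was higher in exosomes, by 1.99-fold (1.88 to 2.10). Its log2 difference of 0.99 became 0.012 when scaled to reads outside the other-tissue markers, 1.67 under median-ratio scaling and 3.74, past 4-fold, under upper-quartile scaling. Of the 4 members, 0 were called higher and 2 lower as deposited, beside 15.4% and 57.2% of 661 names. Under upper-quartile scaling 1 member was called higher and 1 lower, beside 218 and 287 of the 661 names. As deposited, the median was −2.53 over the members and −3.27 over all names. This comparison and the others share libraries in pairs, so they are not independent of each other.

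**Figure D3:**
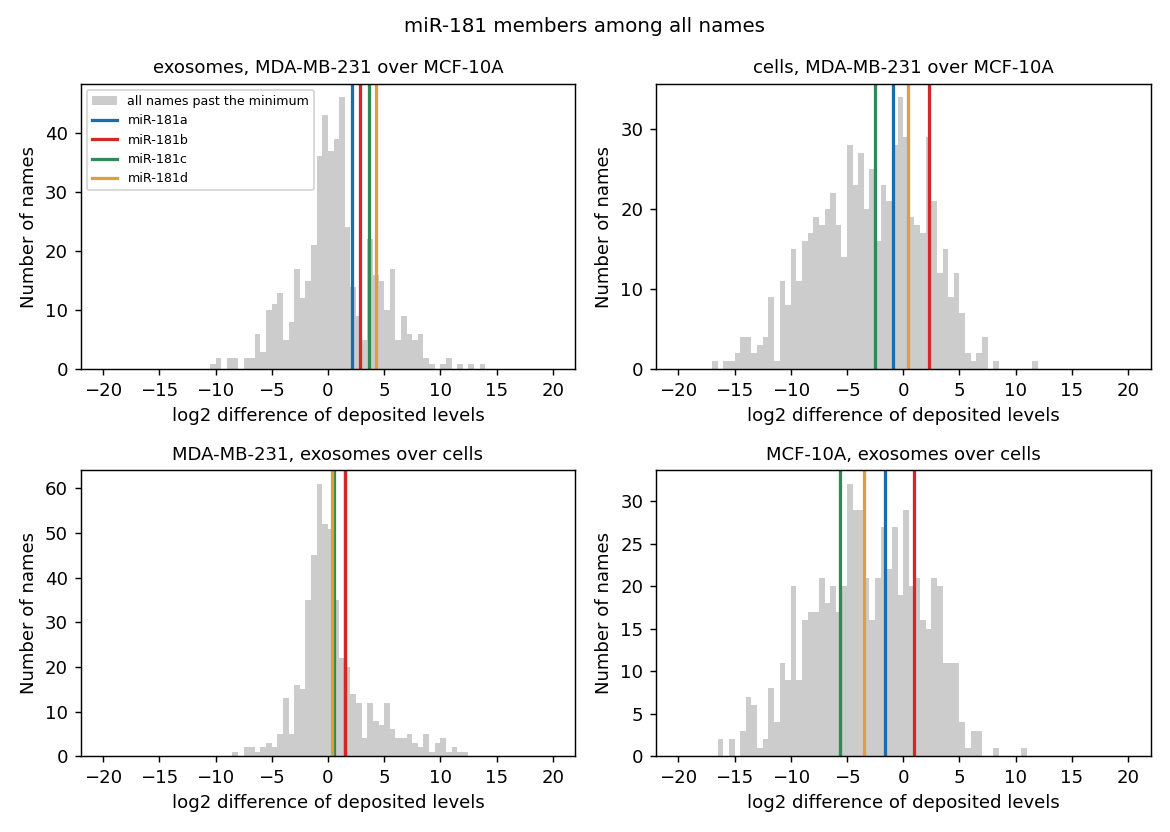
Histograms of the log2 difference of deposited levels (x axis) over all names past the minimum (y axis, number of names) in the 4 comparisons, with a coloured line at each miR-181 member. The members lie on the higher side of the exosome comparison (2.18 to 4.28, against a median of 0.59), between 0.36 and 1.53 within MDA-MB-231 (against a median of −0.09), and spread across the wide distributions that involve the library labelled MCF-10A cell.

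Ratios between members within a library do not depend on the scaling. miR-181a took 52.0% of the family's reads in exosomes of MDA-MB-231 (51.5 to 52.6) and 51.9% in cells of MDA-MB-231 (51.5 to 52.4), against 63.3% in exosomes of MCF-10A (61.9 to 64.7), with 87.8% in the library labelled MCF-10A cell (87.5 to 88.0). miR-181b took 46.9%, 45.8%, 36.4% and 8.49% in the same order. There were thus 1.11 reads of miR-181a for each read of miR-181b in exosomes of MDA-MB-231 (1.08 to 1.14), 1.13 in cells of MDA-MB-231 (1.11 to 1.15), 1.74 in exosomes of MCF-10A (1.64 to 1.85), with 10.3 in the library labelled MCF-10A cell (10.1 to 10.6). Between exosomes and cells of MDA-MB-231 this ratio changed 0.979-fold (0.952 to 1.01), an interval that spans no change. It was 1.57-fold lower in exosomes of MDA-MB-231 than in those of MCF-10A (1.47 to 1.67) and 9.13-fold lower in cells of MDA-MB-231 than in the library labelled MCF-10A cell (8.86 to 9.41). Intervals of such changes use the normal approximation on the log scale.

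miR-181c and miR-181d together held a few percent of the family at most. miR-181c took 0.256% of the family's reads in exosomes of MDA-MB-231, 0.497% in cells of MDA-MB-231, 0.112% in exosomes of MCF-10A, with 2.59% in the library labelled MCF-10A cell. The shares of miR-181d were 0.795%, 1.75%, 0.224% and 1.16% in that order. miR-181d outnumbered miR-181c in exosomes of MDA-MB-231 by 3.10-fold (2.39 to 4.07) and in cells of MDA-MB-231 by 3.52-fold (3.06 to 4.06). In exosomes of MCF-10A the 10 and 5 reads did not separate them (2-fold, 0.623 to 7.46), whereas miR-181c led by 2.24-fold in the library labelled MCF-10A cell (2.07 to 2.41). Each minor member was also read against the abundant name 1 base away. miR-181c had 0.492 reads per 100 reads of miR-181a in exosomes of MDA-MB-231, 0.958 in cells of MDA-MB-231, 0.177 in exosomes of MCF-10A, with 2.96 in the library labelled MCF-10A cell. miR-181d had 1.69, 3.82, 0.616 and 13.7 reads per 100 reads of miR-181b in the same order. Set against exosomes of MCF-10A, these values were higher in the library labelled MCF-10A cell. The change was 16.7-fold for miR-181c (6.94 to 40.2) and 22.2-fold for miR-181d (11.9 to 41.5). How far misread bases of the abundant name add to the minor one was not tested.

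**Figure D4:**
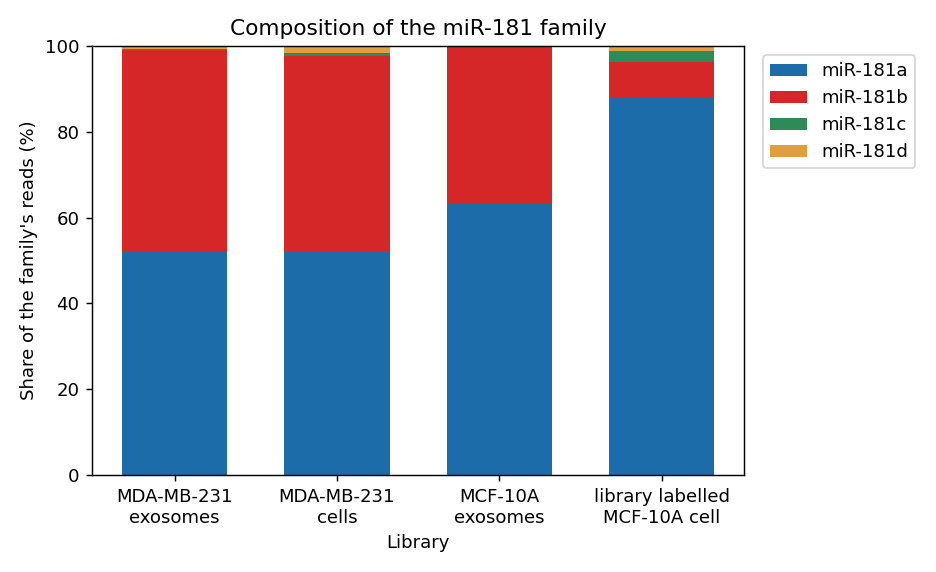
Share of the family's recovered reads (y axis, percent) taken by each miR-181 member in the 4 libraries (x axis), stacked to 100%. miR-181a and miR-181b are nearly even in exosomes of MDA-MB-231 (52.0% and 46.9%) and cells (51.9% and 45.8%), while miR-181a takes 87.8% of the library labelled MCF-10A cell.

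Passenger arms, the strands of a hairpin that are mostly discarded, were present for miR-181a and miR-181c, and those of miR-181a tell its loci apart. Under their present names these are miR-181a-3p, from MIR181A1 on chromosome 1, miR-181a-2-3p, from MIR181A2 on chromosome 9, and miR-181c-3p, all printed with bases 2 to 8 in capitals.
hsa-miR-181a*: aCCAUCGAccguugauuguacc
hsa-miR-181a-2*: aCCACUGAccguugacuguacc
hsa-miR-181c*: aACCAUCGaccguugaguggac
miR-181a* had levels of 10.71 in exosomes of MDA-MB-231 (257 reads), 11.6 in cells of MDA-MB-231 (2280), 9.44 in exosomes of MCF-10A (87), with 9.03 in the library labelled MCF-10A cell (571). miR-181a-2* had levels of 9.42, 9.86, 9.17 and 7.7 from 105, 682, 72 and 226 reads in the same order. Both were highest in cells of MDA-MB-231, where neither mature miR-181a nor miR-181b peaked. miR-181c* had levels of 7.57, 7.75, 6.02 and 7.35 from 29, 157, 8 and 177 reads.

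The arm from chromosome 1 made up 71.0% of miR-181a passenger reads in exosomes of MDA-MB-231 (66.1 to 75.4), 77.0% in cells of MDA-MB-231 (75.4 to 78.5), 54.7% in exosomes of MCF-10A (47.0 to 62.3), with 71.6% in the library labelled MCF-10A cell (68.4 to 74.7). It was the larger share in exosomes of MDA-MB-231, cells of MDA-MB-231 and the library labelled MCF-10A cell, and not separable from an even split in exosomes of MCF-10A. The ratio of the 2 arms differed between exosomes and cells of MDA-MB-231, being 1.37-fold lower in exosomes (1.07 to 1.74).

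Passenger arms followed the mature strands in some comparisons and not in others. Between the exosome libraries 0 of 3 arms passed 4-fold, where 29.3% of all names were called higher and 19% lower, with miR-181a* at 2.42-fold (1.89 to 3.12), miR-181a-2* at 1.19-fold (0.876 to 1.63), an interval that spans no difference, and miR-181c* at 2.97-fold higher (1.32 to 7.51) in MDA-MB-231. Within MDA-MB-231, miR-181a* was 1.85-fold lower in exosomes than in cells (1.63 to 2.11) while miR-181a was higher. Between exosomes of MCF-10A and the library labelled MCF-10A cell, miR-181c* was 2.54-fold lower in exosomes as deposited (1.26 to 5.97), the direction of miR-181c. From its log2 difference of −1.33, the shift of 2.75 by upper-quartile scaling turns miR-181c* higher, while miR-181c stayed lower at −2.89. In cells of MDA-MB-231 miR-181a* was 5.95-fold (5.42 to 6.53) and miR-181a-2* 4.49-fold higher (3.86 to 5.25) than in the library labelled MCF-10A cell, although mature miR-181a was 1.87-fold lower in cells of MDA-MB-231 as deposited. These were 2 of 3 arms as deposited, where 17.4% of all names were called higher. At log2 differences of 2.57 and 2.16, both fall below 4-fold under the shift of −0.98 from scaling to reads outside the other-tissue markers. The shifts of 2.42 by upper-quartile and 0.36 by median-ratio scaling keep both past it. As a ratio within a library, which scaling does not touch, there were 43.2 reads of miR-181a per read of its 2 passenger arms in exosomes of MDA-MB-231 (39.0 to 48.1), 8.95 in cells of MDA-MB-231 (8.62 to 9.30), 17.8 in exosomes of MCF-10A (15.2 to 21.0), with 92.5 in the library labelled MCF-10A cell (86.2 to 99.3). The ratio was 4.83-fold higher in exosomes of MDA-MB-231 than in cells of MDA-MB-231 (4.32 to 5.40), but 5.20-fold lower in exosomes of MCF-10A than in the library labelled MCF-10A cell (4.37 to 6.19). For miR-181c over its arm the ratios were 2.66, 1.62, 0.625 and 12.3 in the order of the libraries above. The ratio of 0.625 in exosomes of MCF-10A rests on 5 and 8 reads, which did not separate the strands (0.161 to 2.17). That in exosomes of MDA-MB-231 was 1.64-fold that in the cells (1.02 to 2.63).

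**Figure D5:**
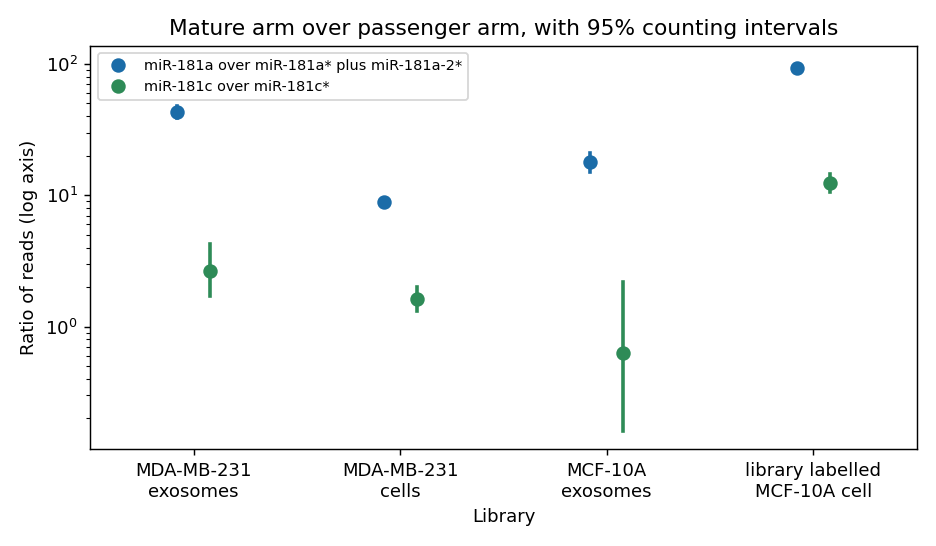
Reads of the mature strand per read of its passenger arms (y axis, log axis) for miR-181a and miR-181c in the 4 libraries (x axis), with bars for the 95% counting interval. For miR-181a the ratio is 43.2 in exosomes of MDA-MB-231 and 8.95 in cells of MDA-MB-231, against 17.8 in exosomes of MCF-10A, with 92.5 in the library labelled MCF-10A cell.

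On chromosome 19, miR-181c and miR-181d have the cluster of miR-23a, miR-27a and miR-24 as neighbours on the opposite strand, 38.0 to 38.3 kb from MIR181C. 0 of 3 passed 4-fold between the exosome libraries, where 29.3% of all names were called higher and 19% lower. Each was higher in exosomes of MDA-MB-231 than in those of MCF-10A as deposited, miR-24 by 2.58-fold (2.53 to 2.64), miR-27a by 1.99-fold (1.92 to 2.05) and miR-23a by 1.53-fold (1.46 to 1.59), against 12.6-fold for miR-181c. Upper-quartile scaling, which shifts each log2 difference of this pair by −0.69, turns miR-23a to the other side of no difference. Their median was 0.99 in that comparison and −0.68 between exosomes and cells of MDA-MB-231, where all 4 miR-181 members were at positive values. miR-24, miR-27a and miR-23a also have copies elsewhere or close paralogs, so not all of their reads need come from this locus.

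Among 203 other names with 50 or more reads per 10000000 in every library, the pattern most like that of miR-181a over the 4 libraries was that of miR-27b, at a distance of 0.643 log2 between centred profiles. It had levels of 17.1, 16.14, 14.79 and 17.1 in exosomes of MDA-MB-231, cells of MDA-MB-231, exosomes of MCF-10A and the library labelled MCF-10A cell. miR-148a (0.675), miR-25 (0.781), let-7c (0.781) and miR-210 (0.819) followed. For miR-181b the closest was a passenger arm, miR-125b-1* (0.898), followed by miR-7 (1.10), miR-99b* (1.34), miR-625* (1.43) and miR-18a* (1.51). The lists closest to miR-181a and miR-181b had 0 names in common, as most pairs of lists of 5 drawn from 203 names would. The measure runs over only 4 libraries. For the summed family the closest was miR-450b-5p (0.572), then miR-148a (0.745), miR-148b (0.783), miR-101 (0.894) and miR-221 (0.965).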

How the data were processed

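The authors deposited 1 log2 value with 2 decimals per miRNA name and library. Small RNAs of 17 to 52 nt were selected and ligated at the 5′ phosphate, per the labels' protocols. Novoalign, edgeR and hg18 are listed, without roles, per the submitters' processing notes. How reads were assigned to names was not given in the sources used here.

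Raising 2 to each deposited log2 value and subtracting 1 gave sums of 9992361 to 10004141 per library, so values were read as reads per 10000000 plus 1. Of names above 0, 40.1% to 65.7% resolved single reads, and 100% of these fell within rounding on whole multiples of 1 step (0.914 to 7.97 per read). Larger counts are known to 0.347%. Ratios have exact conditional binomial and shares Wilson 95% intervals (SciPy 1.17.1, Python 3.11.15). The pipeline was tested on simulated reads.

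Scalings replaced the total by the upper quartile, by median ratios over names above 0 in all 4 libraries, or by reads outside 36 other-tissue markers. A pseudocount of 10, other minimums (none, 50), a 2-fold size and a read rule (10 reads and an interval without 1) were also run. Members, lists and markers were chosen with earlier results of these data known. Named miRNAs were the members, their passenger arms, names of the same seed, fixed lists with up to 4 examples by mean level, and the 5 closest patterns.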

Additional observations from a re-analysis of the deposited data

Results flagged for a closer look

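As deposited, exosomes and cells differed in opposite directions in the 2 lines for the summed family and for 3 of its members, which is why they are listed, and the difference itself was not tested because each group is 1 library. The exosome over cell log2 fold was 1.50 in MDA-MB-231 and −1.11 in MCF-10A for the summed family, a difference of 2.61 (counting interval 2.56 to 2.65). For miR-181a the folds were 1.50 and −1.58, a difference of 3.08 (3.02 to 3.14). For miR-181c they were 0.54 and −5.61, a difference of 6.15 (4.83 to 7.47), and for miR-181d 0.36 and −3.47, a difference of 3.83 (2.91 to 4.75). Over all 701 names with 10 or more reads per 10000000 in any library, the median of the same difference was 2.91, so the family's value lies near that of the libraries as a whole. Under upper-quartile scaling the folds in MDA-MB-231 and MCF-10A were both positive for the family (1.03 and 1.64) and miR-181a (1.04 and 1.17) and both negative for miR-181d (−0.10 and −0.74), which left miR-181c opposite (0.078 and −2.89). The MCF-10A side rests on the library in which markers of other tissues took 49.2% of the reads.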

How the results depend on the processing

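Limits: 1 library per group, 5 and 10 reads of miR-181c and miR-181d in exosomes of MCF-10A, and the choice of scaling against the library labelled MCF-10A cell. Upper-quartile scaling shifted every log2 fold by −0.69 between exosomes, 2.42 between cells, −0.46 within MDA-MB-231 and 2.75 within MCF-10A. Median-ratio scaling shifted them by −0.24, 0.36, 0.08 and 0.68.

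The log2 fold of the summed family between exosomes (2.46) became 1.77 under upper-quartile scaling, 2.22 under median-ratio scaling and 2.85 without miR-181a. Between cells (−0.14) it became 2.28, 0.22, −1.12 with reads outside the other-tissue markers as the total, and 1.83 without miR-181a. Within MDA-MB-231 (1.50) it became 1.03, 1.57 and 1.53 under the 3 scalings. Within MCF-10A (−1.11) it became 1.64, −0.43, −2.09 and, without miR-181a, 0.48.

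The difference of the exosome over cell folds turned to −0.60 for the family, −0.13 for miR-181a and −2.67 for miR-181b under upper-quartile scaling, and to −0.063 for miR-181b under median-ratio scaling. Of 64 member folds recomputed, 32 stayed within their counting interval and 32 moved, and no member past 4-fold changed sign. Every fold run with a pseudocount of 10 stayed, and the wide intervals of names with few reads are harder to leave. The tally therefore does not measure how far the folds hold under other scalings.

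Names called higher in cells of MDA-MB-231 (116) became 225 under upper-quartile scaling, 68 outside the markers and 175 by the read rule. Those called lower in exosomes of MDA-MB-231 against cells (67) became 103 with no minimum, 38 with a minimum of 50, 149 at 2-fold, 38 with a pseudocount of 10 and 155 by the read rule. Those called higher in exosomes of MCF-10A against cells (102) became 218 and 67 under the first and the last scaling. The upper-quartile split was 225 higher and 278 lower between cells, against 116 and 361 as deposited, and 218 and 287 within MCF-10A, against 102 and 378. Within MDA-MB-231 it was 99 and 98, against 111 and 67 as deposited. The cause of these changes was not tested. No paired analysis was possible because each group holds 1 library.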

Other observations

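Names reported to rise with TGF-β or in a mesenchymal transition, the setting in which miR-181a is reported in breast cancer, were mixed. Between the exosome libraries 4 of 10 were called higher and 0 lower in MDA-MB-231 (median 1.33), beside 29.3% and 19% of all names. The examples, taken by mean level, stayed under 4-fold, so none of the 4 called names is among them. miR-21 was 1.24-fold (1.23 to 1.24) and miR-24 2.58-fold higher as deposited, against 7.11-fold for miR-181b. The shift of −0.69 log2 by upper-quartile scaling turns miR-21 lower. Of the called names, miR-10b had 2692 reads in exosomes of MDA-MB-231, 24 in exosomes of MCF-10A and 16 in cells of MDA-MB-231. The rest of the called names also stand in the leukocyte or other-tissue lists. Between exosomes and cells of MDA-MB-231, 4 of 10 were called higher and 0 lower, beside 22.2% and 13.4% of all names. Between the cell libraries 1 of 10 was called higher and 4 lower (median −0.17), beside 17.4% higher and 54.3% lower of all names (median −2.83). Of the epithelial names that fall in that transition, 7 of 7 were called lower in exosomes of MDA-MB-231 than in those of MCF-10A (median −4.03). In cells of MDA-MB-231, 6 of 7 were called lower than in the library labelled MCF-10A cell as deposited (median −5.89). The remaining name, miR-429, was lower but under 4-fold as deposited (levels 9.8 and 10.66). The shift of 2.42 log2 by upper-quartile scaling turns miR-429 and miR-200a (−2.15) higher between the cell libraries. It takes miR-200b (−3.37) below the 4-fold size. In these comparisons 19% and 54.3% of all names were called lower. miR-200c, a repressor of the ZEB factors, was 427-fold lower in exosomes of MDA-MB-231 than in those of MCF-10A (361 to 509), where the summed miR-181 family was 5.51-fold higher.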
